A study of Mus musculus with 2 samples.

Results

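Of the 5910 nuclear peaks called in a Notch1 chromatin immunoprecipitation of gamma delta T cells, 814 lay in an intron near, but not at, a protein-coding start site (13.8%, Wilson 95% interval 12.9 to 14.7). A peak was counted here when it lay inside the body of a protein-coding gene, overlapped no exon of such a gene, and had its edge more than 1 kb and at most 10 kb from the nearest start site of any protein-coding gene's transcript, in the mouse assembly mm10 with the GENCODE M21 annotation. These 814 peaks were 42.7% of the 1907 intronic peaks. The rule used position and gene structure and no measured value.

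The study examined where the Notch1 intracellular domain binds in primary gamma delta T cells. The mice were wild type C57BL/6, the cells were taken from their thymus at postnatal day 0 to 3, and the labels name no transgene or treatment. There were 2 samples: 1 library precipitated with a rabbit antibody to Notch1 (clone D1E11), and 1 input library made without antibody, for which only the label was used and which is not analysed here. With 1 Notch1 library there is no replicate, so no test between conditions or samples was made. Each interval below covers the counting error of peaks or genes in this 1 list and nothing else, and the read depth is not given in the sources used here.

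Notch1 is a cell surface receptor that is cut when a ligand on a neighbouring cell binds it. The freed intracellular domain enters the nucleus and, having no DNA-binding domain of its own, joins the DNA-binding protein RBPJ and a coactivator of the Mastermind family. In T cell precursors much of the binding known for this complex lies at enhancers, and introns near start sites are a common place for enhancers, while gamma delta T cells depend on the strength of both Notch and T cell receptor signals in the thymus.

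The sequences under 5 of the peaks show what was read from the genome and which letters the counts of strings rest on. Each is the + strand of mm10, 5′ to 3′, as the 300 bp around the peak's midpoint or the whole peak where that is shorter. Capitals mark a match, on either strand, to 7 strings: the RBPJ core (TGGGAA, read as TTCCCA on the other strand), RUNX (TGTGGTT or AACCACA), the lymphoid ETS string (AGGAAGT or ACTTCCT), the E-box CAGCTG, the string of GATA factors (AGATAA), TCF and LEF (CTTTGAT) and AP-1 (TGANTCA). Kdm6b and Src are shown as high-scoring peaks, Cytip as a wide peak with the RBPJ core and RUNX far apart, Il1r1 as a peak in a cytokine receptor gene of interleukin-17-producing cells, and Dgka because its RBPJ core and RUNX strings lie 2 bases apart. They were chosen among the named peaks after their values were seen.
Kdm6b chr11:69410461-69410760: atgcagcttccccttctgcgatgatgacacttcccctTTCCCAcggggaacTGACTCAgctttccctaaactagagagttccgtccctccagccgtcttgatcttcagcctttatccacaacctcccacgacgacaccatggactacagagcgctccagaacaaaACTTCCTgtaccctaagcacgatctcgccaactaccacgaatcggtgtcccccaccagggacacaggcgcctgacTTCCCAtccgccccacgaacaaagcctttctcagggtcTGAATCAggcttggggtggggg
Src chr2:157447410-157447709: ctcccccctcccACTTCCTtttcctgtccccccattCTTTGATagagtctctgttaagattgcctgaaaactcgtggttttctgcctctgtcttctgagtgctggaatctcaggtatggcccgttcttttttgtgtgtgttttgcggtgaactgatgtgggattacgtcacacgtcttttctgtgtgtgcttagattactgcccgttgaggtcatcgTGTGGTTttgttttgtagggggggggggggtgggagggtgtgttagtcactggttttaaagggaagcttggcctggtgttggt
Cytip chr2:58153501-58153800: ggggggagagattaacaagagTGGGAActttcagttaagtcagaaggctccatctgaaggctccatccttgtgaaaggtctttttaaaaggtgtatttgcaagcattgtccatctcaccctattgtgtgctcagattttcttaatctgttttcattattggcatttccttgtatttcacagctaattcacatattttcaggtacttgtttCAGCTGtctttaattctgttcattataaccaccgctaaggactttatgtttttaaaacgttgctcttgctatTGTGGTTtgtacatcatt
Il1r1 chr1:40271246-40271500: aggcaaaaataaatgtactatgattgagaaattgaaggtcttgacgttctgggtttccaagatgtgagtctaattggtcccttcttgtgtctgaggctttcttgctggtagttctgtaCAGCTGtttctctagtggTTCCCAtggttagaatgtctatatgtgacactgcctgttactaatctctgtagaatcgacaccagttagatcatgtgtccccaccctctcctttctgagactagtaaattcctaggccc
Dgka chr10:128739491-128739759: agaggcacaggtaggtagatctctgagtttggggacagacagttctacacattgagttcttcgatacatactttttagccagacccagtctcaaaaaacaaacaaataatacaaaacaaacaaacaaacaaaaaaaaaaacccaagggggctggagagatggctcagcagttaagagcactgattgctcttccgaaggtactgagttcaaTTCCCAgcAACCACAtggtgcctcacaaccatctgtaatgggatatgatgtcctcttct

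The Kdm6b sequence held 2 RBPJ cores, 1 lymphoid ETS string and 2 AP-1 strings. The Src sequence held 1 lymphoid ETS string, 1 TCF string and 1 RUNX string, and no RBPJ core. In Dgka TTCCCA was followed, after 2 bases, by AACCACA, and that peak was 85.1% soft-masked, meaning that the reference marks most of its bases as repeat-derived.

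Each peak in the deposited list carried a score, the authors' own value, whose scale no header or label states. It is used here only to rank and describe peaks within the list. The 814 peaks had scores between 76.53 and 3185.94 with a median of 705 (quartiles 634 and 875), against a median of 718 over all nuclear peaks. In the top 25% of scores (at least 904) stood 185 of them (22.7%, 19.98 to 25.7), against 25% of all nuclear peaks. That share was 22.7% of the 1093 intronic peaks over 10 kb from a start site and 29.6% of the 1173 promoter peaks, those that reach within 1 kb of a start site. The intronic peaks near start sites were thus no higher in score than intronic peaks farther away, and a smaller share of them than of promoter peaks was in the top 25%. Their GC content, over 300 bp at the midpoint, had a median of 44.3%, against 52.7% in promoter peaks. Windows of 300 bp without a peak, in the intron sequence that the rule could have drawn from, had a median of 43.7%.

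At the inner limit of distance, the nearest peaks inside were in Irgc1 (1001 bp, score 859.16), Bnip3l (1009 bp, 582.65) and Rnf14 (1010 bp, 1068.72). Those just outside were near Hip1r (999 bp, 808.46), Ube2t (997 bp, 806.9) and Sfi1 (994 bp, 233.82). At the outer limit, Neo1 (9972 bp, 689.33), Lsm1 (9965 bp, 651.12) and Xpo7 (9960 bp, 751.03) were inside, and Phc1 (10026 bp, 636.03), Anxa6 (10026 bp, 703.89) and Clta (10027 bp, 516.89) were outside.

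Peaks were densest in the kilobase next to the inner limit. The intron sequence that could hold such a peak, called eligible intron here, came to 293.8 Mb or 11.1% of the nuclear genome outside gaps, and held 2.77 peaks per Mb, against 1.84 per Mb of intron over 10 kb from a start site and 2.23 per Mb of the nuclear genome. Between 1 and 2 kb from a start site there were 182 peaks, or 3.65 per Mb (exact Poisson 95% interval 3.14 to 4.22). From 2 to 10 kb the density ran between 2.01 and 2.84 per Mb in each kilobase, with intervals that overlap one another. The interval at 1 to 2 kb overlaps theirs too, except at 5 to 6 kb (upper end 2.85) and 8 to 9 kb (2.67). The median score was not highest next to the inner limit, at 704 between 1 and 2 kb and between 688 and 741 in the farther bins.

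**Figure D1:**
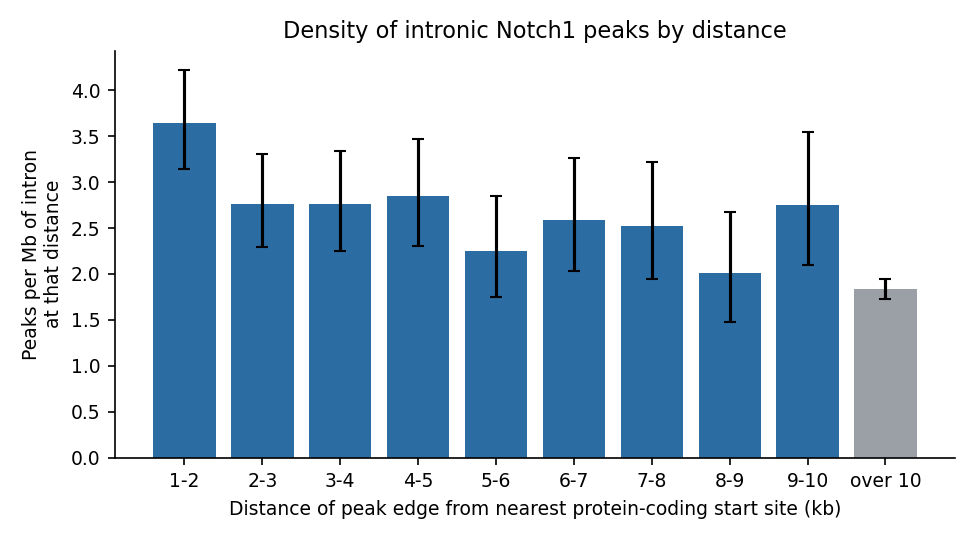
Intronic Notch1 peaks per Mb of intron (vertical axis) in bins of distance between peak edge and nearest protein-coding start site in kb (horizontal axis), with exact Poisson 95% intervals as error bars; blue bars are the 814 peaks and the grey bar the 1093 intronic peaks farther away. The bar at 1 to 2 kb, 3.65 per Mb, is the highest, and the grey bar, 1.84 per Mb, the lowest.

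Introns that come first in any transcript of their gene held more peaks for their length than other introns. Of the 814 peaks, 444 (54.5%, 51.1 to 57.9) lay in intron 1 of some protein-coding transcript of the gene, while intron 1 made up 42.8% of eligible bases. That is 3.53 peaks per Mb of eligible intron 1 and 2.20 per Mb of the other introns. Taking the longest transcript of each gene instead, 355 peaks (43.6%) lay in intron 1, and for that definition the share of eligible bases was not computed. Side of the start site made no such difference, as 63.1% of the peaks and 63.4% of eligible bases were downstream of the nearest start, at 2.76 peaks per Mb downstream and 2.79 per Mb upstream. A peak upstream of its nearest start can still be intronic because many genes start at several places, and in 96.1% of cases the nearest start belonged to the gene that held the peak.

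The peaks lay in 769 genes, which is 3.98% of the 19319 protein-coding genes with any eligible intron. Of these, 698 genes held 1 peak, 56 held 2 and 9 held 3. Osbpl3, Sytl2, Map3k5 and Smad3 held 4 each. Map3k5 encodes a stress-activated kinase and Smad3 a transcription factor of TGF-beta signalling, with scores of 863.4, 724.78, 701.93 and 635.86 in Map3k5 and of 637.11, 597.72, 569.3 and 538.02 in Smad3. The highest counts, 10 each, were in Sfi1 and in Gm20388, a gene model that encloses many other genes and whose peaks span 3853 kb. Holding a peak went with length: 0.298% of genes with up to 2 kb of eligible intron held one, against 10.2% of genes with over 20 kb.

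Genes with a promoter peak held an intronic peak near a start site more often. Among the 769 genes, 93 (12.1%, 9.98 to 14.6) also had a promoter peak, against 5.48% of all genes with eligible intron. Among genes with over 20 kb of eligible intron, 16.01% of the 406 with a promoter peak and 9.70% of the 4733 without one held such an intronic peak. The shares were 7.65% and 3.82% with 10 to 20 kb, and 4.80% and 1.503% with 5 to 10 kb. Another peak of any class lay within 10 kb of 21.6% of the 814 peaks, against 11.6% of intronic peaks farther from start sites and 29.0% of promoter peaks.

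Width and score were tied together in a way that bears on every ranking that follows. The peaks were 150 to 2043 bp wide with a median of 370 bp. The 26 peaks of at most 200 bp had a median score of 1451 and all 26 stood in the top 25% of scores. The median score fell with width, to 859 in the 147 peaks up to 300 bp, 713 in the 150 up to 350 bp, 667 in the 247 up to 400 bp and 640 in the 187 up to 450 bp, and was 1079 in the 57 peaks over 450 bp. A high score therefore belonged to both the narrowest and the widest peaks. Among the 814, 508 (62.4%) had exactly the score of another nuclear peak, against 3848 of all 5910 nuclear peaks (65.1%). Both the score and the width of another were found at 420 of the 814 (51.6%), the score 624.46 alone occurring 11 times. How many reads stand behind a narrow peak of high score cannot be read from the list, and the part of duplicate reads in it was not tested.

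One stretch of chromosome 11 stood apart. Within chr11:3137413-3198483, 61.1 kb across Sfi1, a gene for a centrosome protein, and Drg1, a gene for a GTP-binding protein, 12 of the 814 peaks followed one another among 37 peaks of all classes. Their scores were 76.53 to 705.08 with a median of 199, and 10 of the 12 peaks with scores under 400 and all 7 peaks wider than 1000 bp were among them. Of their 32-base strings, 2.38 to 38.1% occurred elsewhere in the genome. The part of repeated sequence in this run was not tested. Over all 814 peaks, 550 held no repeated 32-base string, and 3, in Smc2, Amz2 and Zc3h7a, had most of theirs repeated.

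**Figure D2:**
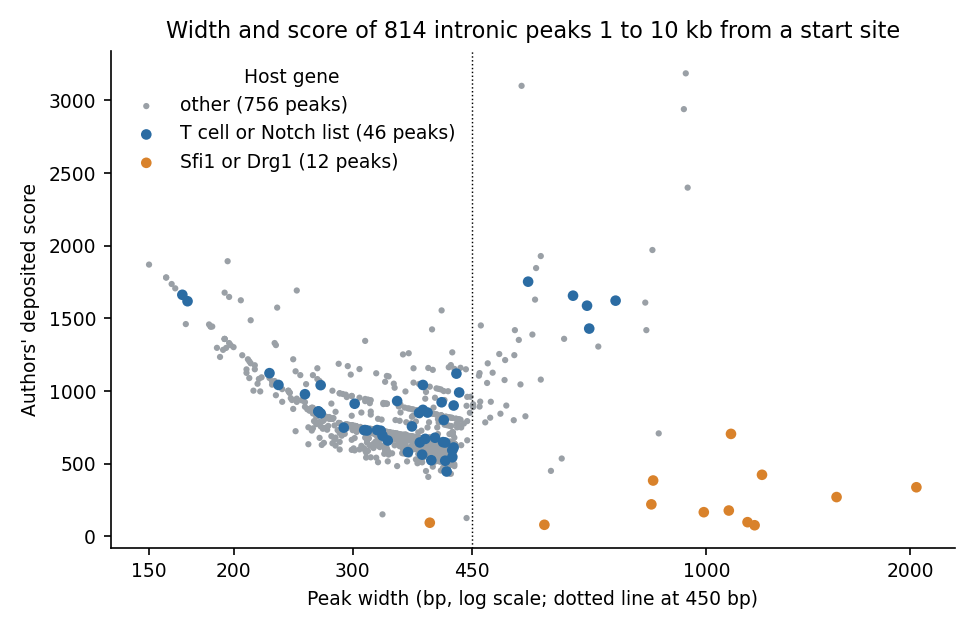
Peak width in bp (horizontal axis, log scale) against the authors' deposited score (vertical axis) for the 814 intronic peaks, 1 point a peak, coloured by the gene that holds it; the dotted line stands at 450 bp. Scores run high at both ends of the width range, and the 12 peaks in Sfi1 or Drg1 lie low, mostly at the wide end.

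The highest score, 3185.94, belonged to a 932 bp peak in intron 1 of Ccr9, 9.94 kb upstream of a Ccr9 start site. Ccr9 is the receptor for the chemokine Ccl25 and guides cells within the thymus and to the gut. The next was a 533 bp peak with a score of 3100 in Cdk8, which encodes the kinase of the Mediator complex and is known to phosphorylate the Notch1 intracellular domain. The third, with 2939.65, was in Tex14, a gene of germ cell bridges, and overlapped the start of the small nuclear RNA gene Rnu1a1. It lay 4.17 kb upstream of a Tex14 start site, so the peak is near a start site that the rule did not count. Src, a tyrosine kinase gene, held a 938 bp peak with a score of 2399.54.

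Kdm6b, the gene of a demethylase that removes a repressive histone mark, held a pair of wide peaks in intron 1, with scores of 1970.27 and 1608.48 at 3.62 and 2.66 kb downstream of a start site. Plekha5 (1928.71) and Sema4d, a semaphorin of lymphocytes (1846.12), also held wide peaks, of 569 and 560 bp. By contrast 6 of the 15 highest scores came from peaks of at most 200 bp. Among them were those in Clic6 (1870.04, 150 bp), Uggt1 and Abhd4 (1781.22 and 159 bp in both), Gcat (1736.37, 162 bp) and Mtfmt (1706.61, 164 bp). The last of the 15, Cd82, a tetraspanin gene, held a 248 bp peak with a score of 1691.77.

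In all, 32 peaks (3.93%, 2.80 to 5.50) lay within 1 kb of the start of a gene that is not protein-coding. Beside Tex14, those of highest score were in Bach2, 870 bp from the start of the non-coding gene Bach2it1, in Dpp4, in Mphosph9 and in Pak4 and Samd4b, 323 bp from the start of Mir7049.

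Genes of T cell function held these peaks more often than genes at large. Over 9 lists of T cell and Notch genes, 40 of 304 genes with eligible intron (13.2%, 9.81 to 17.4) held at least 1, against the 3.98% of all genes, and their 46 peaks came to 7.91 per Mb of eligible intron, against 2.77 per Mb over all genes. With over 20 kb of eligible intron, 20 of 108 listed genes (18.5%) held one, against 10.2% of all such genes. The lists were chosen with earlier results of these data known, so the shares are a description.

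**Figure D3:**
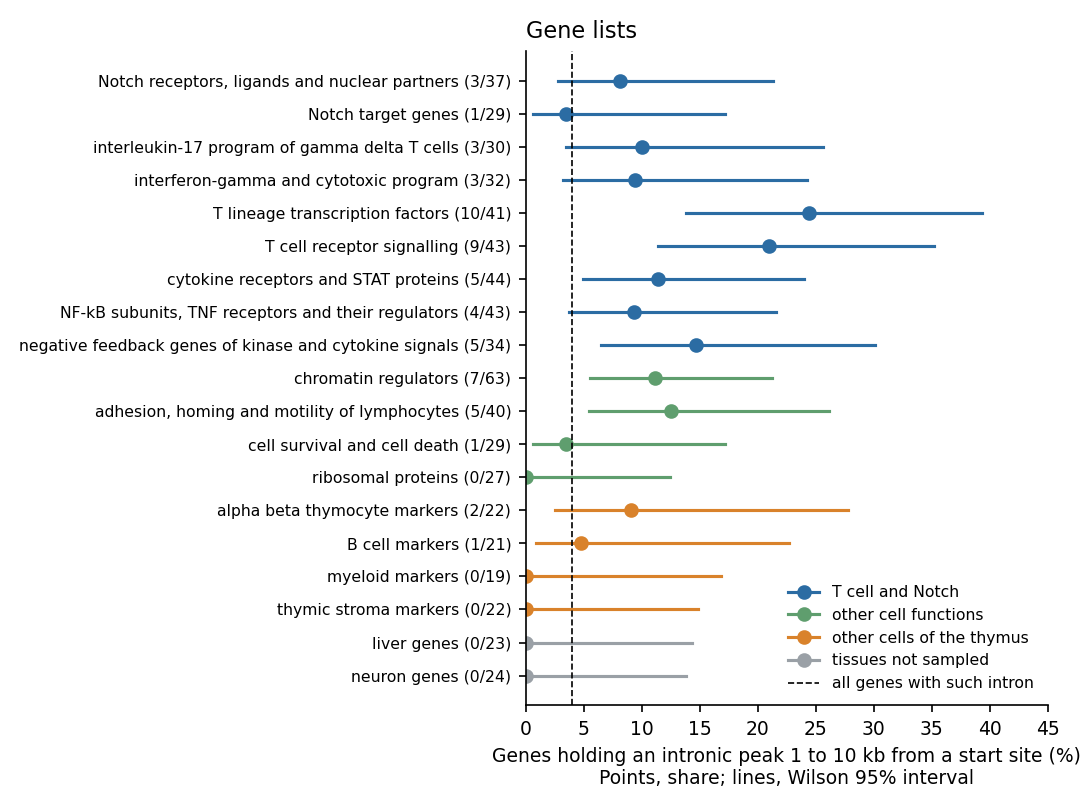
Share of the genes with eligible intron in each of 19 lists that hold an intronic peak 1 to 10 kb from a start site (horizontal axis, %), with Wilson 95% intervals as lines and the numbers of genes in parentheses; the dashed line is the 3.98% of all genes. T lineage transcription factors (24.4%) and T cell receptor signalling (20.9%) stand farthest to the right, and 5 lists stand at 0.

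Transcription factors of the T lineage had the highest share: 10 of 41 genes (24.4%, 13.8 to 39.3) held 15 peaks, at 15.9 per Mb of eligible intron. Bach2, a repressor that holds lymphocytes back from effector fates, held 3 within 1.96 kb of intron 1, with scores of 1656.11, 1752.49 and 1041.68 at 1.93, 2.58 and 3.51 kb downstream of a start. Fli1, an ETS factor of blood cells, had a peak of 1587.2 at 1.65 kb downstream, and its neighbour Ets1, an ETS factor that lymphocytes need, had peaks of 728.4 and 523.71 at 1.52 and 8.15 kb. All the Bach2 and Fli1 peaks stood in the top 25% of scores, and those of Ets1 lay just above and well below the median of 705.

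The Ikaros family, zinc finger regulators of lymphocyte development, was present with 3 members. Ikzf3 had scores of 922.71 and 678.69, Ikzf1 of 579.69 and Ikzf2 of 446.27, which ranked 798 of the 814. Zeb1, a repressor that thymocytes need, had peaks of 1040.47 and 870.44, one upstream and one downstream of a start. Bcl6, the repressor of follicular helper cells, had 859.16, Foxp1, a factor of T cell quiescence, 670.74, and Klf3 562.23. With peaks at or above the list's median score alone, 6 of the 41 genes (14.6%) held one, against 1.93% of all genes. With no repeated 32-base string it was 7 (17.1%), against 2.82%, with peaks under 20% soft-masked 8 (19.5%), against 2.21%, and with peaks over 450 bp wide 2, Bach2 and Fli1, against 0.243%.

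In T cell receptor signalling 9 of 43 genes (20.9%, 11.4 to 35.2) held 1 peak each, at 8.87 per Mb. Of the genes named here, Cd247, the signalling zeta chain of the receptor (900.32), Grap2, an adaptor (645.72), and Themis, which thymocytes need for selection (543.88), carry or tune the signal. A further 5 are known as brakes on it. Csk, the kinase that holds Src-family kinases inactive, had 1429.71 in a 671 bp peak. Dgka, which removes diacylglycerol, had 846.41, Ctla4, an inhibitory receptor, 659.71, Ubash3a, a suppressor of signalling, 646.14, and Ptpn22, a phosphatase, 593.34. Except for Csk, Cd247 and Dgka these scores were below the median of 705, and 3 of the 43 genes held a peak at or above the list's median score.

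Negative feedback genes of kinase and cytokine signals had 5 of 34 genes with 6 peaks (14.7%, 6.45 to 30.1). Rgs10, a brake on G protein signals, had 912.59 and 849.7, Smad7, an inhibitor of TGF-beta signals, 851.91, Rasa3 and Nf1, which switch off Ras-family proteins, 756.32 and 748.35, and Dusp10, a phosphatase of MAP kinases, 693.07. The Nf1 peak lay also in Evi2 and Evi2b, which overlap an intron of Nf1, and its nearest start was that of Evi2b, 3.31 kb away. A peak in Ergic1 had Dusp1, another MAP kinase phosphatase, as its nearest start (707.23, 8.49 kb upstream).

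Cytokine receptors and STAT proteins had 5 of 44 genes (11.4%, 4.95 to 24.0), each with its peak in intron 1. Stat5b, a transducer of interleukin-2 and interleukin-7 signals, had a 734 bp peak of 1621.87 at 3.80 kb downstream of a start. The receptors for type I and type II interferon followed, Ifnar1 with 1122.93 and Ifngr1 with 990.11, then Il1r1 with 978.1 and Il10ra with 731.59. In the list of NF-kB subunits and TNF receptors 4 of 43 genes held one (9.30%, 3.68 to 21.6): Tnfrsf9, a costimulatory receptor (931.28, in sequence shared with Camta1), Bcl3 (859.16), Tnfrsf1a (648.41) and Tnfrsf1b (611.44). The interval of that list reaches below the 3.98% of all genes.

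The programs that set gamma delta T cell subsets apart held 3 genes each. For the interleukin-17 program, 3 of 30 genes (10%, 3.46 to 25.6) were Rora, a nuclear receptor that drives interleukin-17 genes (1119.8), Il1r1 and Ikzf2. For the interferon-gamma and cytotoxic program, 3 of 32 (9.38%, 3.24 to 24.2) were Nr4a1, induced by receptor signals (1041.97), Tnfrsf9 and Cd244a, a receptor of cytotoxic cells (730.82). Both intervals include the share of all genes.

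Among receptors, ligands and nuclear partners of Notch itself, 3 of 37 genes (8.11%, 2.80 to 21.3) held a peak. That interval includes the share of all genes, and the list's 3.03 peaks per Mb of eligible intron is close to the 2.77 over all genes. Dll1, a ligand, had 1662.17 in a 168 bp peak in intron 8, 1.53 kb upstream of one of its starts. Dll3, a ligand known mainly for blocking Notch in the same cell, had 800.3, and Maml3, a Mastermind coactivator, had 727.03. Of the genes listed as Notch targets 1 of 29 held one (3.45%, 0.611 to 17.2), a 171 bp peak in Tspan3 with a score of 1617.98 at 1.02 kb. That share is close to the 3.98% of all genes.

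**Figure D4:**
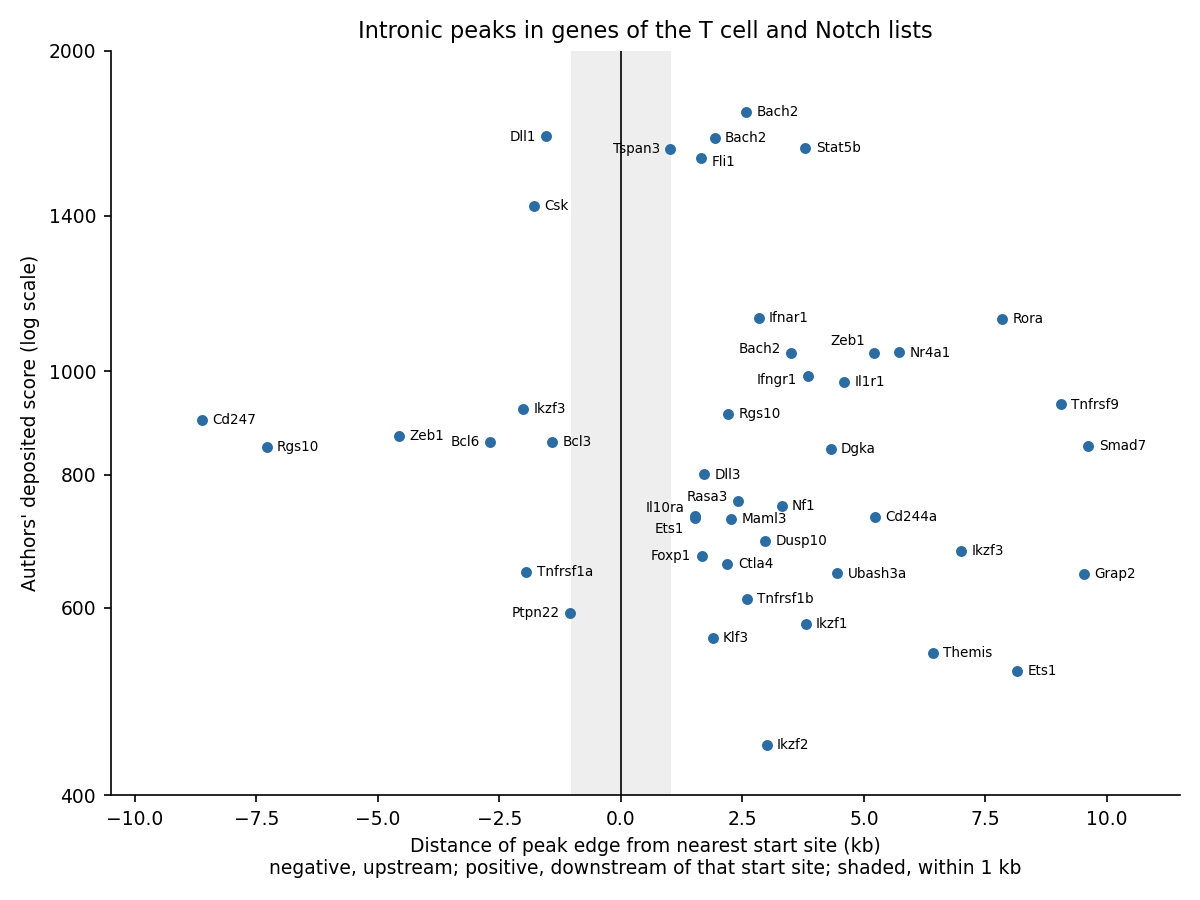
The plot shows 45 of the 46 peaks in genes of the T cell and Notch lists by the distance of the peak edge from the nearest start site in kb (horizontal axis, negative upstream and positive downstream) and by the authors' deposited score (vertical axis, log scale), 1 point a peak with its gene. Of the 3 Bach2 peaks 2 lie at 1429.71 or above, as do those of Dll1, Stat5b, Tspan3, Fli1 and Csk, and the lowest point is Ikzf2 at 446.27.

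Lymphocyte adhesion and homing had 5 of 40 genes with 6 peaks (12.5%, 5.46 to 26.1). Beside Ccr9 these were Elmo1, which helps cells move (1045.44 and 711.54), Selplg, the ligand by which leukocytes roll on selectins (965.96), Itga1, a collagen-binding integrin chain (884.77), and Cxcr5, a homing receptor (643.93). The nearest start to the Itga1 peak was that of Pelo, 1.89 kb away. Chromatin regulators had 7 of 63 genes with 10 peaks (11.1%, 5.49 to 21.2). They were Kdm6b, Kdm1a (1460.67), Kdm2b (1296.65 and 630.63), Kdm5c (900.0), Hdac7, a deacetylase of thymocytes (846.41 and 759.01), Hdac9 (757.77) and Crebbp, an acetyltransferase that Notch complexes recruit (744.03).

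The remaining lists held at most 2 genes each. Survival and death genes had 1 of 29 (Bcl2l1, 664.83) and ribosomal protein genes 0 of 27. Alpha beta thymocyte markers had 2 of 22 (9.09%, 2.53 to 27.8), Bcl2l1 and Themis, at 8.24 per Mb. That share is near those of the interleukin-17 and interferon-gamma programs. B cell markers had 1 of 21, Bank1 with 1043.99. Myeloid markers had 0 of 19, thymic stroma 0 of 22, liver 0 of 23 and neuron 0 of 24, intervals for which reach up to 13.8 to 16.8%, so a share at the level of all genes is not told apart from these. A peak in Tmem189 had the myeloid gene Cebpb as its nearest start (731.59). Over the lists of other cell types and tissues together, alpha beta thymocytes included, 3 of 130 genes (2.31%, 0.788 to 6.57) held a peak, at 1.75 per Mb.

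The RBPJ core, TGGGAA, was read on both strands in the 300 bp window at each peak's midpoint and in 923543 windows of the same length tiled over eligible intron without a peak. It occurred at 228 peaks (28.01%, 25.03 to 31.2), against 25.3% of windows. The longer GTGGGAA, which contains the core, was at 6.88% of peaks and 5.52% of windows, and AAGGGT, the core read backwards and of no known use, at 14.3% and 13.3%. In each case the windows' share lay inside the peaks' interval. Within 100 bp of the midpoint the core occurred 1.09 times per kb, against 1.05 per kb at 500 to 1000 bp from it. Over all 814 peaks the core was thus not more frequent beyond counting error. Among the 444 peaks under 20% soft-masked it was at 31.8% (27.6 to 36.2), against 27.3% of such windows, a share just below that interval.

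Wide peaks held the core at a higher share. Of the 57 peaks over 450 bp, 23 held the core in the same 300 bp (40.4%, 28.6 to 53.3), against 26.6% of the 459 nuclear peaks of that width. Without the run in Sfi1 and Drg1 it was 18 of 46 (39.1%, 26.4 to 53.5). A high score did not go with a higher share. The core was at 24.9% of the peaks in the top 25% of scores and at 27.5% of those below the list's median score. The width was chosen after the shares were seen.

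Strings of other T cell factors were near the windows' share as well. RUNX (TGTGGTT) was at 8.23% of peaks and 8.0% of windows, lymphoid ETS (AGGAAGT) at 8.35% and 7.08%, and the E-box CAGCTG of E proteins was at 13.0% and 12.2%. The E-box CAGGTG, which E proteins share with SNAI and ZEB repressors, was at 20.9% and 19.3%. The string of GATA factors (AGATAA) was at 17.3% and 17.5%, that of TCF and LEF (CTTTGAT) at 6.27% and 5.13%, and that of AP-1 (TGANTCA) at 9.83% and 8.75%. The string of NFAT (TGGAAA) was at 23.6% and 25.9%, that of STAT proteins (TTCNNNGAA) at 7.37% and 9.29%, IRF at 3.69% and 4.38% and NF-kB at 1.60% and 1.05%. Those of the NR4A receptors (AAGGTCA) were at 6.14% and 5.66%, of the ROR receptors (TAGGTCA) at 2.83% and 3.0%, and of CTCF at 1.72% and 2.11%. For each of these the windows' share lay inside the peaks' interval. The TCF string occurred 0.215 times per kb within 100 bp of the midpoint, against 0.133 per kb in the flanks. That ratio of 1.62, on 35 matches near the midpoint, was the highest of the 21 strings searched, whose ratios ran down to 0.761, and RUNX and GATA stood at 1.04 and 1.05. At 99 peaks (12.2%, 10.1 to 14.6) at least 2 of the 7 capitalised strings were present, against 10.9% of windows.

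For 3 of the 21 strings the windows' share lay below the peaks' interval, with no allowance made for the number of strings. SP and KLF (GGGCGG) was at 5.28% of peaks (3.95 to 7.04), against 3.29% of windows and 31.3% of promoter peaks. The promoter form of the ETS string (CCGGAAG) was at 1.60% (0.936 to 2.71), against 0.853%, and the E-box CACGTG of HES and MYC proteins at 4.91% (3.63 to 6.62), against 3.58%. In that order, their ratios of frequency within 100 bp of the midpoint to that in the flanks were 1.05, 1.15 and 1.34. These ratios rest on 34, 9 and 29 matches near the midpoint. All 3 strings hold a CG pair, which is frequent at promoters, and whether this bears on their shares was not tested.

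**Figure D5:**
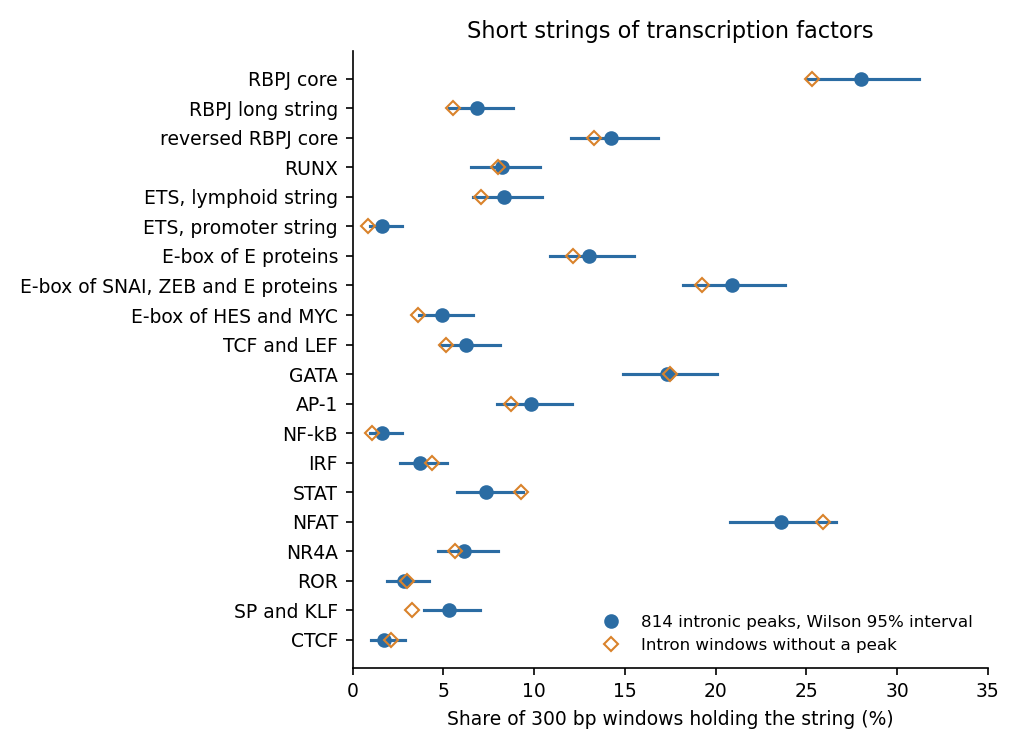
Share of 300 bp windows that hold each of 20 strings (horizontal axis, %) at the 814 peaks (blue points with Wilson 95% intervals) and in 923543 windows of eligible intron without a peak (open orange diamonds). The diamond lies inside the blue interval for most strings, and to the left of it for the promoter ETS string, the CACGTG E-box and SP and KLF.

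The pair of RBPJ core and RUNX strings printed for Dgka recurred. Of the 19 peaks with both strings in the window, 4 held them in this order 2 bases apart, in Dgka, Trim33, Fbxw4 and the overlap of Drg1 and Sfi1, and in all 4 the match was soft-masked. That is 0.491% of the 814 peaks, against 0.677% of windows. Among the 21513 windows without a peak that hold both strings, 29.0% held them in this arrangement, and 99.8% of its matches were soft-masked, so nearly every match at this spacing lay in sequence that the reference marks as repeat-derived. RUNX strings in general were soft-masked less often at the peaks, 16 of 71 matches (22.5%), than in the windows (41.1%). RBPJ cores were likewise, 49 of 258 (19.0%) against 24.5%. This was not particular to these strings, as it held for the reversed core too (17.5% against 20.6%). It held for every other string searched except the E-box CACGTG, the ROR string and the arrangement above. The joined string was added to the search after the Dgka sequence was seen.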

How the data were processed

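One Notch1 library gave the deposited peak list, and the input library was not analysed here. Per the submitters' processing notes, Bowtie 1.0.0 and SAMtools 0.1.18 were used with genome build mm10. The peak names begin with MACS, but its version, settings and use of the input as control were not given in those sources or in the labels. The deposited score is the authors' value, of unstated scale, and served only to rank and describe peaks. Per the labels' protocols, libraries had 18 PCR cycles, and no depth is given, so intervals cover counting error only.

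Peak starts were converted to count from 1. Of 5913 peaks, 3 mitochondrial ones were left out, and 0 reached past a chromosome end of the GRCm38 reference, which with GENCODE M21 gave genes and sequence. The rule, density, string and list counts were computed in Python 3.11.15 with numpy 2.4.6 and scipy 1.17.1. The rule and the string search were checked on simulated cases, and the density and list counts were not. Of 687 list entries, 683 matched a gene. Strings were matched exactly on both strands, in 300 bp at the midpoint. The members and lists were chosen with earlier results of these data known. Named peaks were the 15 of highest score, up to 6 for each list, those in genes holding 3 or more (up to 12 genes), those at the limits, up to 6 with both RBPJ core and RUNX, and up to 5 near non-coding starts. Peaks outside this rule, which are the remaining peaks of listed genes (such as those of Ets1, Bcl6 and Ptpn22) and those of Smc2, Amz2, Zc3h7a, Trim33 and Fbxw4, were added after their values were seen. Some genes may not be reported. Alternatives were 15 settings, 3 of them added after seeing the data.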

Additional observations from a re-analysis of the deposited data

How the results depend on the processing

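No paired analysis was possible because there is 1 Notch1 library and no shared replicate number, and no replicate could be left out. Over 9 results, 73 values under other settings moved by less than their interval or 1.5 times, and 34 moved; no setting had a test to pass. With peaks at most 5 kb from a start the number was 503 in 496 genes (3.05 per Mb), and at most 20 kb the density was 2.58 per Mb and 50.9% lay in intron 1. The density was 2.51 per Mb with starts and exons of all genes and 3.19 by peak midpoint. Intron 1 held 67.8% with starts of coding transcripts only and 43.6% with the longest transcript. With peaks at or above the list's median score there were 381 in 372 genes (1.30 per Mb), 48.6% in the top 25% of scores, with 6 T lineage and 3 receptor signalling genes. Under 20% soft-masked there were 444 in 427 genes (1.51 per Mb), 5 receptor signalling genes, RUNX at 6.31% and the RBPJ core at 31.8%. The core was at 33.2% over whole peaks and 19.4% over the central 200 bp, where RUNX was at 5.41%; a longer or shorter stretch holds more or fewer strings. Chosen after seeing the data, peaks over 450 bp wide numbered 57 in 47 genes (0.194 per Mb), with 61.4% in the top 25% of scores, RUNX at 10.5%, the core at 40.4%, 2 T lineage genes and 1 receptor signalling gene. With no repeated 32-base string, also chosen after seeing the data, the density was 1.87 per Mb, with 5 receptor signalling genes. Leaving out the Sfi1 and Drg1 run moved none of the 9. Stricter subsets hold fewer peaks by construction. The cut at the median score also raises the share in the top 25% by construction, as all 185 such peaks stay among the 381. RUNX was at 6.61% of the windows under 20% soft-masked, near the 6.31% of such peaks. For the other changes the cause was not tested. The depth is unknown, and with 1 library no value has a replicate.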
